A study of Mus musculus with 8 samples.

Results

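The 39 genes described here encode interferon-induced antiviral effectors, the proteins through which an infected or interferon-exposed cell acts on viral RNA, viral particles and its own translation. They were taken by symbol from a list of such effectors (Ifit1, Isg15, Usp18, Rsad2, the Mx genes and others) that leaves out the OAS, GBP, RNA sensor, STAT and chemokine genes, and all 39 were found by Entrez Gene number among the 24454 genes of the deposited tables. RNA was sequenced in 8 libraries from cultured 4T1, a mammary carcinoma line of the mouse that models metastatic breast cancer. Every cell population had been infected with a lentivirus carrying a short hairpin RNA and selected with puromycin. The hairpin was the non-targeting control in 3 libraries (shCTRL), was directed against mouse MEK5 in 2 libraries (shMEK5, titled shMEK5-2) and against mouse ERK5 in 3 libraries (shERK5, titled shERK5-1). MEK5 is the kinase that activates the kinase ERK5, and the study concerns this pair in the epithelial-mesenchymal transition and metastasis of breast cancer cells. There was 1 hairpin per target, so an effect of the target cannot be told apart from an effect of the hairpin. Whether the replicates of a group were separate cultures is not recorded in the labels; the p-values therefore reflect the scatter among these 8 libraries, which may be technical.

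Type I interferons signal through the receptor IFNAR1/IFNAR2 and the kinases JAK1 and TYK2 to a transcription factor complex containing STAT2 and IRF9, which binds the interferon-stimulated response element in the promoters of effector genes. The effectors then act at successive steps of infection: some bind or degrade viral RNA, some stop translation, some hold virions at the membrane, and some attach the ubiquitin-like protein ISG15 to other proteins. In tumour cells the same genes are known for rising with interferon from neighbouring cells and with nucleic acid sensing inside the tumour cell itself.

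The promoters of several members carry the response element, and the sequences of 7 of them, which include Ifit1, Isg15, Rsad2 and Bst2, are shown so that the element can be seen beside their values. RefSeq promoter windows of GRCm38.p6, which reach from 250 bases before a start site to 50 after it, were at hand for 29 of the 39 members (38 windows). The core of the element, read as GAAA, any 2 bases and GAAA again and searched on both strands, was present in 10 of these 29 genes, or 34.5% (95% exact binomial interval 17.9 to 54.3%, covering counting error only), against 3.99% of the 27025 genes with a window in the same table. The longer form that continues with CT was present in 6 of the 29 members (20.7%) and in 0.303% of all genes. The gamma-activated site TTCNNNGAA, a second element of interferon-responsive promoters, was present in 6 members (20.7%, interval 7.99 to 39.7%) and in 9.55% of all genes, and 1 of the 6 matches, in Bst2, overlapped a response element. A match is a run of letters, and binding was not measured. Windows were not shown for Usp18, Mx1, Mx2, Rtp4, Ifi27, Parp9, Parp10, Parp14, Zbp1 and Tor3a. In the 7 members whose matches lay wholly before the start site in a single window, the stretches run from 30 bases before the first match to 30 bases after the last, or to the start site in Ddx60. They were Ifit1 (chr19:34640755-34640843, plus strand), Ifit3 (chr19:34583343-34583446, plus strand), Ifit3b (chr19:34607739-34607842, plus strand), Isg15 (chr4:156200845-156200926, minus strand), Rsad2 (chr12:26456533-26456602, minus strand), Ddx60 (chr8:61928004-61928086, plus strand) and Bst2 (chr8:71537557-71537632, minus strand). Each is written 5′ to 3′ on the gene's strand, with the matches in capitals.
Ifit1: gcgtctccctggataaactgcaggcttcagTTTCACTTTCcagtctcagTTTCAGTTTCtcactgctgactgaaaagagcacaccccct
Ifit3: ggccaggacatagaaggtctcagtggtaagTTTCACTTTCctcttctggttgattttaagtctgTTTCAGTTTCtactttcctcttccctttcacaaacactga
Isg15: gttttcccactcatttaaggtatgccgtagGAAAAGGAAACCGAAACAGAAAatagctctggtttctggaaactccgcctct
Rsad2: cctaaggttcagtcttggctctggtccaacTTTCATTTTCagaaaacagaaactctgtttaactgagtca
Ddx60: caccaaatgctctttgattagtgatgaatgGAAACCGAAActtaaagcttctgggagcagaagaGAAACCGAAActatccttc
Bst2: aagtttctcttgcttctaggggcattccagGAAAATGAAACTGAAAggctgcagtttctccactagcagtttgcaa
The stretch of Ifit3b is not repeated, because all 104 of its bases were identical to those of Ifit3. The matches began 104 and 85 bases before the start site in Ifit1, 156 and 122 in Ifit3, 188 and 154 in Ifit3b, 53 and 19 in Ddx60, 130 and 124 in Bst2 and 120 in Rsad2. Isg15 held 3 overlapping matches between 78 and 66 bases before its start. The remaining matches lay at or past an annotated start site in Eif2ak2 and Trim21 and on both sides of it, in separate windows, in Trim30a. No match was found in the windows of 19 members, among them Cmpk2, Ifi44, Xaf1, Helz2 and Samd9l, which says only that these letters were not in these windows.

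**Figure D1:**
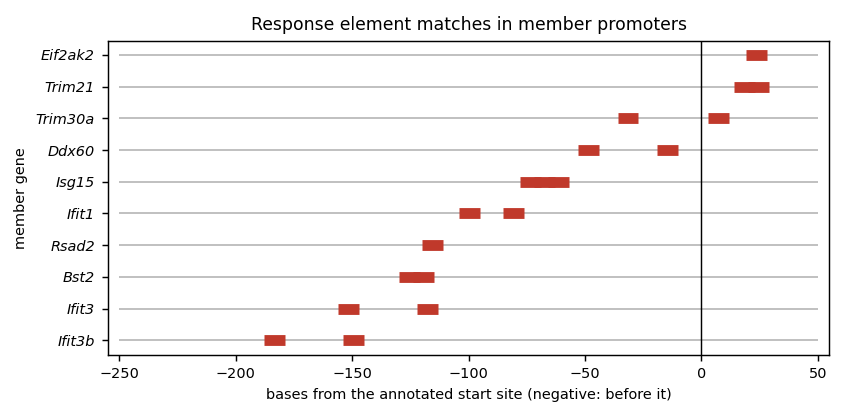
Matches to the response element core (red blocks) along the promoter windows of the 10 members that held one. The horizontal axis is the distance in bases from the annotated start site (vertical line), from 250 before to 50 after, and Trim30a combines windows of 2 start sites; in 7 of the 10 genes the matches lie between 188 and 19 bases before the start.

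Each library held between 41397315 and 53714288 reads assigned to genes. Values are given as CPM, the reads of a gene per 1000000 assigned reads, so that 1 read was worth between 0.0186 and 0.0242 CPM and a count of 0 allowed up to 0.0725 CPM (3 reads, counting error only) in the shallowest library. Fold changes and tests come from limma on log2(CPM + 1), fitted to 11623 genes in all 8 libraries; a gene is called changed at a Benjamini-Hochberg adjusted p under 0.05. The hairpins lowered their targets. Map2k5, the MEK5 gene, lay at 14.1 and 14.4 CPM in shMEK5 and at 35.2 or more elsewhere. Mapk7, the ERK5 gene, lay between 6.33 and 6.66 CPM in shERK5. In shMEK5, at 20.4 and 18.7 CPM, Mapk7 was also below its shCTRL values of 25.6, 28.6 and 26.1 CPM. Of the carcinoma cell's own epithelial markers, Epcam, Cdh1, Krt8, Krt18, Krt19 and Cldn4 were at 11.6 CPM or more in every library and Krt14 reached at most 1.84 CPM; they moved in both directions. In shERK5 the means of Cldn4 (69.5 to 288 CPM), Cdh1 (37.4 to 112), Epcam (13.2 to 28.4) and Krt19 (37.2 to 76.7) were higher than in shCTRL, and those of Krt18 (1111 to 774) and Krt8 (549 to 383) lower. In shMEK5 Krt18 (731 CPM) and Krt8 (379.7 CPM) were lower too, Cdh1 (55.6 CPM) and Krt19 (49.2 CPM) were higher, and Krt14 went from 0.343 to 1.79 CPM. All 8 leukocyte markers were below 1 CPM in all libraries, and their summed level lay between 0.0576 and 0.164 CPM in shCTRL, between 0.147 and 0.193 in shMEK5 and between 0.112 and 0.135 in shERK5; Cd3e, Adgre1 and Siglech had no reads. Of the 6 fibroblast markers only Pdgfra passed 1 CPM, with sums between 31.6 and 47.3 CPM in shCTRL, 34.4 and 35.9 in shMEK5 and 22.9 and 28.2 in shERK5, and Dcn and Lum had no reads. The 3 endothelial markers summed to at most 0.338 CPM, in shMEK5, and Kdr had no reads. In bulk RNA, fewer cells of a type and less RNA per cell cannot be told apart, and the part of these marker differences in the results was not tested.

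The effectors were raised in both knockdowns, to a greater extent in shMEK5. Summed over the 39 members, the level was between 651 and 675 CPM in the shCTRL libraries, 1107 and 1114 CPM in shMEK5 and between 803 and 828 CPM in shERK5, so the groups did not overlap. Of the 39 members, 38 passed the filter of 1 CPM in at least 2 libraries and were tested. Sp110, a nuclear body protein gene, did not pass, with between 2 and 5 reads per library in shCTRL, 10 and 8 in shMEK5 and between 7 and 16 in shERK5. Ifit3, Ifit3b, Mx1 and Zbp1 passed through the shMEK5 libraries alone and so could hardly fail to differ there. Of the other 34 tested members, 31 rose and 1 fell in shMEK5, with a median log2 fold change of 0.77 (background: 48.7% of all tested genes were called, 23.1% up and 25.6% down, with a median of -0.02). In shERK5, 23 of the 34 rose and 2 fell, with a median of 0.39 (background: 63.3% were called, 32.0% up and 31.3% down, with a median of 0.00). With those 4 genes included, 35 of 38 rose in shMEK5 and 24 of 38 in shERK5. Usp18, Isg15, Ifi44, Xaf1, Cmpk2, Trim30a and Sp100 reached 1 CPM in fewer than 2 shCTRL libraries. They passed the filter only with knockdown libraries, where they were higher. The 34 and the role groups below include them, and counts without them were not made. The 24 that rose in shERK5, Zbp1 among them, all rose in shMEK5 as well. Over all tested genes, 2028 of the 3723 that rose in shERK5 also rose in shMEK5 (background: 17.4% of tested genes rose in both). Both comparisons share the shCTRL libraries. Read by library, 35 of 38 members had both shMEK5 values above every shCTRL value and 1 had them below (background: 32.2% and 36.5% of tested genes). The 35 include Ifit3, Ifit3b, Mx1 and Zbp1, which passed the filter through shMEK5 alone. The shERK5 values were all above shCTRL for 24 members and all below for 2 (background: 34.8% and 33.1%).

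**Figure D2:**
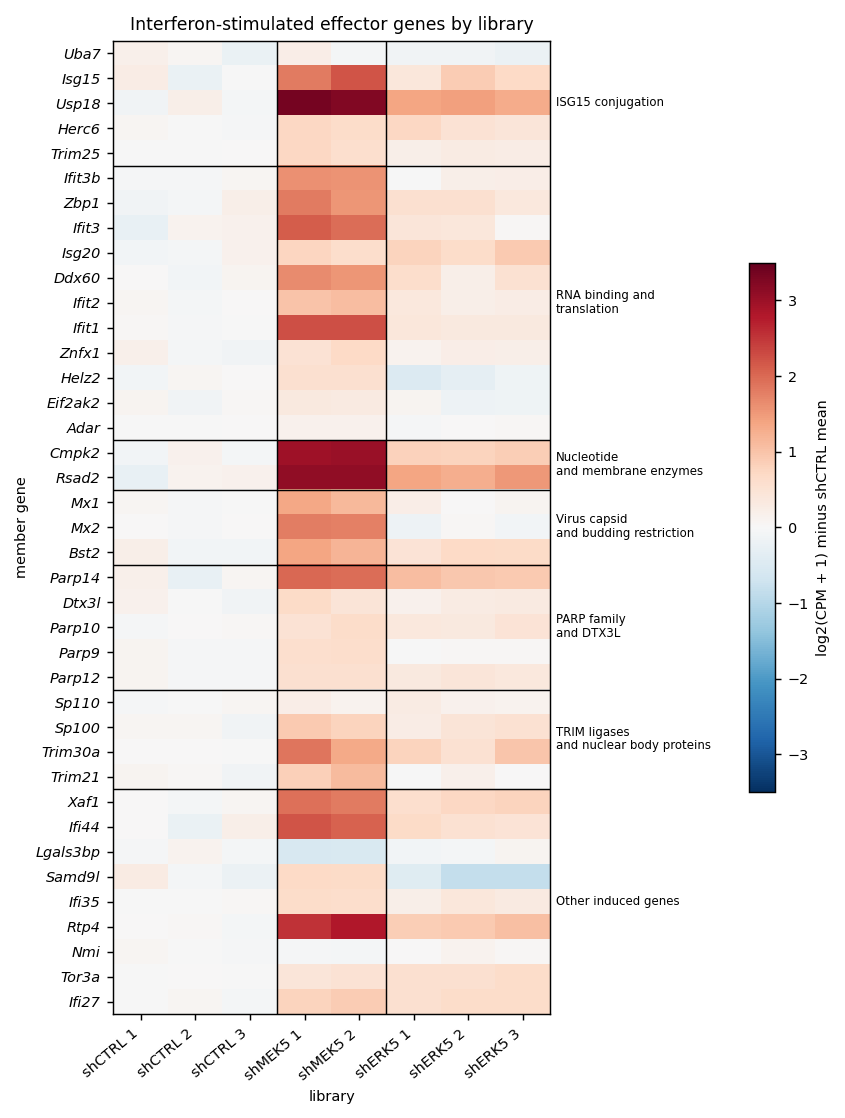
Each row is a member and each column a library; colour is log2(CPM + 1) minus the mean of the 3 shCTRL libraries, red for higher and blue for lower, with role groups separated by lines. The 2 shMEK5 columns are darkest, with Usp18, Rsad2, Cmpk2 and Rtp4 at the top of the scale, the shERK5 columns are paler, and Samd9l and Helz2 are red in shMEK5 and blue in shERK5.

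The ISG15 system modifies proteins with the ubiquitin-like ISG15 through the activating enzyme UBA7 and ligases such as HERC6 and TRIM25, and USP18 removes ISG15 and also dampens the type I interferon receptor. In shMEK5 and in shERK5, 4 of its 5 members rose and 0 fell (background: 23.1% of all tested genes rose in shMEK5 and 32.0% in shERK5). Usp18 (Entrez Gene 24110, chr6:121245906-121270917, GRCm38) lay at 0.615, 1.05 and 0.679 CPM in the shCTRL libraries, at 17.03 and 15.86 CPM in shMEK5 and at 3.57, 3.76 and 3.33 CPM in shERK5. No group overlapped another, and shERK5 stood between the other two. The mean was 21.0 times that of shCTRL in shMEK5 and 4.54 times in shERK5, and Usp18 rose by 3.30 (SE 0.11, limma adjusted p = 4.43e-08) and 1.36 (SE 0.10, adjusted p = 1.85e-06) on the log2 scale. Isg15 itself went from a mean of 0.952 ± 0.350 CPM (SD, n = 3) up to one of 6.88 ± 1.49 CPM (SD, n = 2) in shMEK5 and 2.07 ± 0.517 CPM (SD, n = 3) in shERK5, with log2 fold changes of 2.02 (SE 0.19) and 0.66 (SE 0.17). The 2 shMEK5 libraries of Isg15, at 5.82 and 7.93 CPM, were far above the highest value elsewhere, 2.55 CPM. The ligase gene Herc6 rose by 0.69 (SE 0.09) and 0.56 (SE 0.08), and Trim25, which also ubiquitinates the RNA sensor RIG-I, by 0.66 (SE 0.06) and 0.25 (SE 0.05). Uba7, the activating enzyme, was not called. Its values of 3.65, 3.27 and 2.47 CPM in shCTRL overlapped both 3.87 and 2.88 CPM in shMEK5 and 2.74, 2.78 and 2.56 CPM in shERK5, and the 95% intervals of its log2 fold changes ran from -0.22 to 0.38 and from -0.42 to 0.12.

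The members that bind, degrade, edit or translate RNA were the largest group, with 11 genes. In shMEK5 11 rose (background: 23.1% up), 3 of them (Ifit3, Ifit3b and Zbp1) having passed the filter through shMEK5 alone. In shERK5 5 of 11 rose and 1 fell, against a background of 32.0% up and 31.3% down. Ifit1, which binds the 5′ end of foreign RNA and blocks its translation, lay at 4.36, 4.14 and 4.25 CPM in shCTRL, 24.3 and 24.2 CPM in shMEK5 and 5.92, 5.67 and 5.67 CPM in shERK5. All 3 shERK5 libraries were above all 3 shCTRL libraries, but the shMEK5 libraries stood far above both. The mean ratio to shCTRL was 5.70 in shMEK5 and 1.35 in shERK5, and the log2 fold changes were 2.26 (SE 0.07, limma adjusted p = 4.07e-08) and 0.36 (SE 0.06, adjusted p = 0.000677). Ifit2, a relative that also promotes cell death, went from a mean of 6.60 ± 0.303 CPM (SD, n = 3) up to one of 14.6 ± 0.581 CPM (SD, n = 2) and 8.20 ± 0.518 CPM (SD, n = 3).

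Ifit3 and its neighbour Ifit3b, partners of IFIT1, were near the limit of detection in shCTRL. Ifit3 had 0.115, 0.444 and 0.482 CPM there, 4.86 and 4.23 CPM in shMEK5 and 0.801, 0.751 and 0.382 CPM in shERK5, where the range overlapped shCTRL. Its shERK5 change on the log2 scale, 0.29 (SE 0.14, limma adjusted p = 0.0872), was not called, although it was called with DESeq2 on recovered reads (0.93, adjusted p = 0.0318) and without shERK5 replicate 3 (0.41, adjusted p = 0.0282). Ifit3b had 0.134, 0.140 and 0.219 CPM in shCTRL, 2.54 and 2.46 CPM in shMEK5 and 0.149, 0.338 and 0.360 CPM in shERK5. The counting of reads that fit near-identical copies is not recorded, so the division of reads between these 2 genes is uncertain. Zbp1, a sensor of Z-form nucleic acid that can start necroptosis, went from a mean of 0.359 ± 0.164 CPM (SD, n = 3) up to one of 3.37 ± 0.631 CPM (SD, n = 2) in shMEK5 and to 0.914 ± 0.150 CPM (SD, n = 3) in shERK5.

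Isg20, a 3′ to 5′ exonuclease of RNA, did not follow the order of the IFIT genes. It lay at 6.38, 6.55 and 7.73 CPM in shCTRL, 12.4 and 11.1 CPM in shMEK5 and 12.5, 11.4 and 13.8 CPM in shERK5. Both knockdowns were above every shCTRL library and overlapped each other. Its log2 fold changes were 0.69 (SE 0.10) and 0.78 (SE 0.09, limma adjusted p = 4.27e-05), and the difference between the knockdowns had a 95% interval from -0.14 to 0.32. Ddx60, a helicase that assists RNA sensing, went from a mean of 3.55 ± 0.313 CPM (SD, n = 3) up to one of 12.7 ± 0.878 CPM (SD, n = 2) in shMEK5 and 5.23 ± 0.884 CPM (SD, n = 3) in shERK5. Its log2 fold changes were 1.60 (SE 0.12) and 0.45 (SE 0.11). Znfx1, a helicase that binds viral RNA, rose in shMEK5 by 0.60 (SE 0.09). Its shERK5 value of 0.18 (adjusted p = 0.0773) was called only without shCTRL replicate 1 (0.27, adjusted p = 0.00724) among the alternatives run. Its gene overlaps the abundant noncoding gene Zfas1, and the use of strand in counting is not given.

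Eif2ak2 and Adar, which were abundant in the control cells, changed little. Eif2ak2 encodes PKR, the kinase that stops translation on double-stranded RNA. It lay at 73.3, 63.5 and 70.6 CPM in shCTRL, 88.3 and 85.8 CPM in shMEK5 and 73.9, 60.7 and 61.7 CPM in shERK5. Only the shMEK5 libraries stood apart. In shMEK5 it rose by 0.33 on the log2 scale (SE 0.09, limma adjusted p = 0.0111), but not past the threshold when shMEK5 replicate 1 was omitted (0.31, adjusted p = 0.071). In shERK5 its log2 fold change was -0.08 (SE 0.08), and it was called lower without shERK5 replicate 1 (-0.17, adjusted p = 0.0383). The gene overlaps Gm6548, a transcribed pseudogene with a mean of 653 CPM over the 8 libraries. Adar, the enzyme that edits adenosine to inosine in double-stranded RNA, lay at 83.1, 83.6 and 85.1 CPM in shCTRL, 93.9 and 93.6 CPM in shMEK5 and 81.0, 84.4 and 85.8 CPM in shERK5. The rise in shMEK5 was 0.16 (SE 0.05, adjusted p = 0.02) and was not called without shMEK5 replicate 1 (0.16, adjusted p = 0.0923) or without shMEK5 replicate 2 (0.16, adjusted p = 0.0873). The 95% interval of the Adar fold change in shERK5 was from -0.10 to 0.09.

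Rsad2 (viperin) makes a nucleotide that ends viral RNA chains, and Cmpk2, its neighbour on chromosome 12, makes the nucleotide precursor. Both rose in both knockdowns (background: 17.4% of tested genes did). Rsad2 lay at 1.81, 2.69 and 2.74 CPM in shCTRL, 28.1 and 28.3 CPM in shMEK5 and 7.80, 7.23 and 8.66 CPM in shERK5. The 3 groups were well apart from one another. Means were 11.7 times shCTRL in shMEK5 and 3.28 times in shERK5, with log2 fold changes of 3.11 (SE 0.13, limma adjusted p = 9.77e-08) and 1.39 (SE 0.11, adjusted p = 3.26e-06). Cmpk2 went from a mean of 0.778 ± 0.177 CPM (SD, n = 3) up to one of 13.2 ± 0.303 CPM (SD, n = 2) in shMEK5 and 2.12 ± 0.0794 CPM (SD, n = 3) in shERK5, ratios of 16.95 and 2.72. Its difference between the knockdowns, -2.19 (SE 0.10) for shERK5 minus shMEK5 on the log2 scale, was the greatest among the members.

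The Mx proteins are dynamin-like GTPases that trap viral nucleocapsids, and BST2 (tetherin) holds budding virions at the cell surface. All 3 genes rose in shMEK5, and in shERK5 only Bst2 was called (background: 23.1% and 32.0% of tested genes up). Of the 3, Mx1 passed the filter through shMEK5 alone. Mx2 lay at 2.02, 1.92 and 2.04 CPM in shCTRL, 9.32 and 9.23 CPM in shMEK5 and 1.62, 2.07 and 1.80 CPM in shERK5. The shERK5 and shCTRL ranges overlapped, and both were far below shMEK5. On the log2 scale Mx2 differed from shCTRL by 1.78 in shMEK5 (SE 0.09, limma adjusted p = 4.4e-07) and by -0.08 (95% interval -0.27 to 0.10) in shERK5. Mx1 had 4, 0 and 1 reads in the shCTRL libraries, 68 and 60 reads in shMEK5 and 11, 2 and 5 reads in shERK5, so it was scarcely detected outside shMEK5. Bst2 lay at 5.57, 4.35 and 4.40 CPM in shCTRL, 13.9 and 12.1 CPM in shMEK5 and 6.98, 8.30 and 8.10 CPM in shERK5. Its groups did not overlap, and its log2 fold changes were 1.28 (SE 0.11) and 0.61 (SE 0.10).

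**Figure D3:**
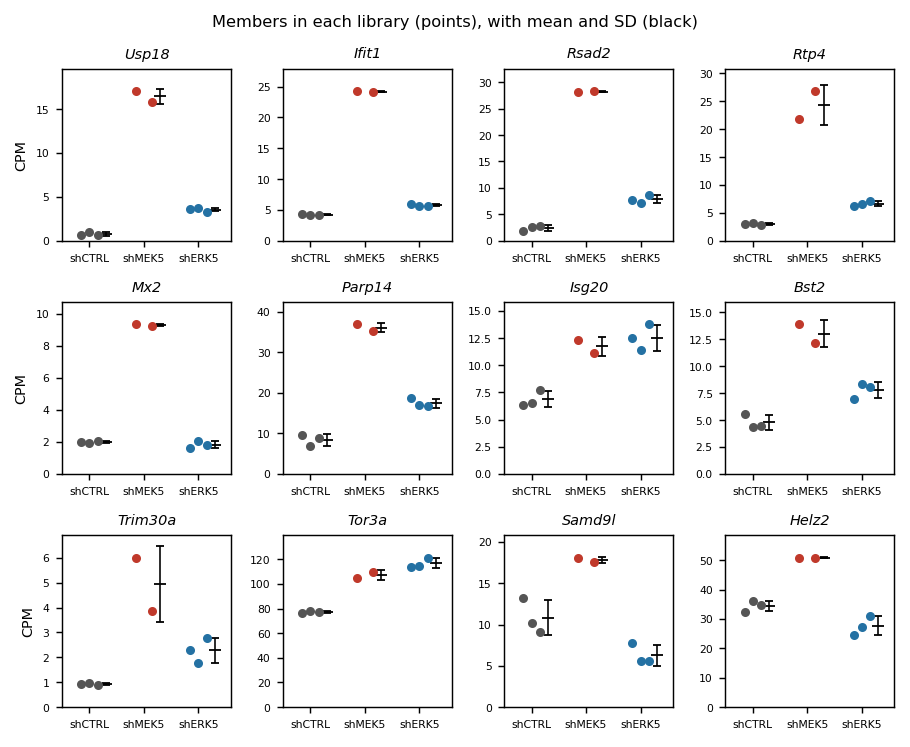
CPM of 12 members in each library (points, vertical axes from 0 and separate for each gene), grouped by hairpin, with the group mean and SD in black beside them. Usp18, Ifit1, Rsad2, Rtp4, Mx2 and Parp14 are highest in shMEK5, Isg20 and Tor3a reach similar levels in both knockdowns, and Samd9l and Helz2 are above shCTRL in shMEK5 and below it in shERK5.

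PARP9, PARP10, PARP12 and PARP14 are ADP-ribosyltransferases or relatives of them, and DTX3L is the ubiquitin ligase that pairs with PARP9. In shMEK5 5 of the 5 genes rose, and in shERK5 4 rose and 0 fell (background: 23.1% and 32.0% up). Parp14 moved most. It lay at 9.66, 6.88 and 8.74 CPM in shCTRL, 36.9 and 35.3 CPM in shMEK5 and 18.6, 16.9 and 16.7 CPM in shERK5. The groups did not overlap, and the log2 fold changes were 1.99 (SE 0.11, limma adjusted p = 9.98e-07) and 0.98 (SE 0.10, adjusted p = 1.84e-05). The other 4 members of this group rose in shMEK5 by between 0.56 and 0.60. Parp9 and Dtx3l overlap on chromosome 16, and a difference between their changes was not tested. Parp9 had 29.0 ± 1.58 CPM (SD, n = 3) in shCTRL and 29.4 ± 0.689 CPM (SD, n = 3) in shERK5, with a 95% interval from -0.11 to 0.14. The rise of Dtx3l in shERK5 by 0.25 (SE 0.08, adjusted p = 0.0248) was lost with no filter (adjusted p = 0.0509). Omitting shCTRL replicate 2 or 3 gave 0.23 and 0.19 (adjusted p = 0.0674 and 0.101), and omitting shERK5 replicate 2 or 3 gave 0.23 and 0.21 (adjusted p = 0.0638 and 0.0868), none of which was called.

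Trim21, an antibody receptor of the cytosol with ligase activity, Trim30a, a rodent TRIM protein, and Sp100 and Sp110, of nuclear bodies, formed another group, of which 3 genes were tested. All 3 rose in shMEK5, and Trim30a and Sp100 rose in shERK5 (background: 23.1% and 32.0% of tested genes up). Trim30a lay at 0.941, 0.959 and 0.898 CPM in shCTRL, 6.01 and 3.87 CPM in shMEK5 and 2.29, 1.78 and 2.77 CPM in shERK5. The groups did not overlap, but the 2 shMEK5 libraries were far from each other. Its log2 fold changes were 1.60 (SE 0.16) and 0.75 (SE 0.14). Trim21 rose in shMEK5 from a mean of 6.92 ± 0.555 CPM (SD, n = 3) up to one of 14.5 ± 2.00 CPM (SD, n = 2), and its 95% interval in shERK5 ran from -0.14 to 0.27. Sp100 went from a mean of 0.902 ± 0.137 CPM (SD, n = 3) up to one of 2.44 ± 0.238 CPM (SD, n = 2) and 1.53 ± 0.247 CPM (SD, n = 3). Trim30a has close relatives in the same gene cluster, and the division of reads among them is uncertain.

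The remaining 9 members share induction by interferon rather than a biochemical role. In shMEK5 7 of them rose and 1 fell, and in shERK5 6 rose and 1 fell (background: 23.1% up and 25.6% down, and 32.0% up and 31.3% down). Rtp4, a chaperone of membrane receptors, lay at 3.06, 3.11 and 2.78 CPM in shCTRL, 21.8 and 26.8 CPM in shMEK5 and 6.29, 6.54 and 7.20 CPM in shERK5. The gene overlaps Masp1, with a mean of 5.42 CPM over the 8 libraries, and the use of strand in counting is not given. The mean ratios of Rtp4 to shCTRL were 8.14 and 2.24, and its groups did not overlap. Ifi44 and the pro-apoptotic gene Xaf1 behaved similarly, with log2 fold changes of 2.14 (SE 0.13) and 1.87 (SE 0.10) in shMEK5 and 0.56 (SE 0.12) and 0.69 (SE 0.09) in shERK5. Ifi27, of the mitochondrial and nuclear membranes, was already at 79.1 ± 3.43 CPM (SD, n = 3) in shCTRL and reached 142 ± 8.30 CPM (SD, n = 2) in shMEK5 and 122 ± 3.93 CPM (SD, n = 3) in shERK5. Ifi35 rose by 0.63 (SE 0.07) and 0.30 (SE 0.06). Its binding partner Nmi was not called, at 27.3, 25.9 and 25.4 CPM in shCTRL, 25.6 and 24.9 CPM in shMEK5 and 26.5, 28.6 and 27.1 CPM in shERK5. The 95% intervals of the log2 fold changes of Nmi ran from -0.19 to 0.09 and from -0.06 to 0.19.

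Tor3a, an ATPase of the endoplasmic reticulum, was, beside Isg20, the member whose rise was greater in shERK5 than in shMEK5. It lay at 76.6, 77.7 and 77.0 CPM in shCTRL, 104.6 and 110.0 CPM in shMEK5 and 114.0, 114.7 and 121.4 CPM in shERK5. The 3 groups did not overlap, but the difference between the knockdowns, 0.12 (SE 0.05) on the log2 scale, was not called (limma adjusted p = 0.0845). Lgals3bp, a secreted glycoprotein that binds galectins, was the only member that fell in shMEK5. It lay at 14.4, 16.3 and 14.2 CPM in shCTRL, 9.81 and 10.1 CPM in shMEK5 and 14.0, 14.3 and 16.2 CPM in shERK5. Both shMEK5 libraries were below all others, and the gene fell by 0.54 on the log2 scale (SE 0.09, limma adjusted p = 0.000564).

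Samd9l and Helz2 moved in opposite directions in the 2 knockdowns, each passing the test in both. Across all tested genes 2.99% did so. Samd9l, an antiproliferative factor that restricts poxviruses, lay at 13.2, 10.2 and 9.15 CPM in shCTRL, 18.1 and 17.5 CPM in shMEK5 and 7.76, 5.52 and 5.56 CPM in shERK5. No shERK5 library reached the lowest shCTRL library, and no shCTRL library reached shMEK5. The log2 fold changes were 0.68 (SE 0.16, limma adjusted p = 0.00714) and -0.70 (SE 0.14, adjusted p = 0.00232). Helz2, a helicase and nuclear receptor co-activator, lay at 32.5, 36.0 and 34.9 CPM in shCTRL, 50.8 and 50.9 CPM in shMEK5 and 24.6, 27.2 and 31.0 CPM in shERK5. Its log2 fold changes were 0.55 (SE 0.09) and -0.31 (SE 0.08, adjusted p = 0.00545). The differences between shERK5 and shMEK5 were -1.39 (SE 0.16) for Samd9l and -0.86 (SE 0.09) for Helz2, and both were called.

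**Figure D4:**
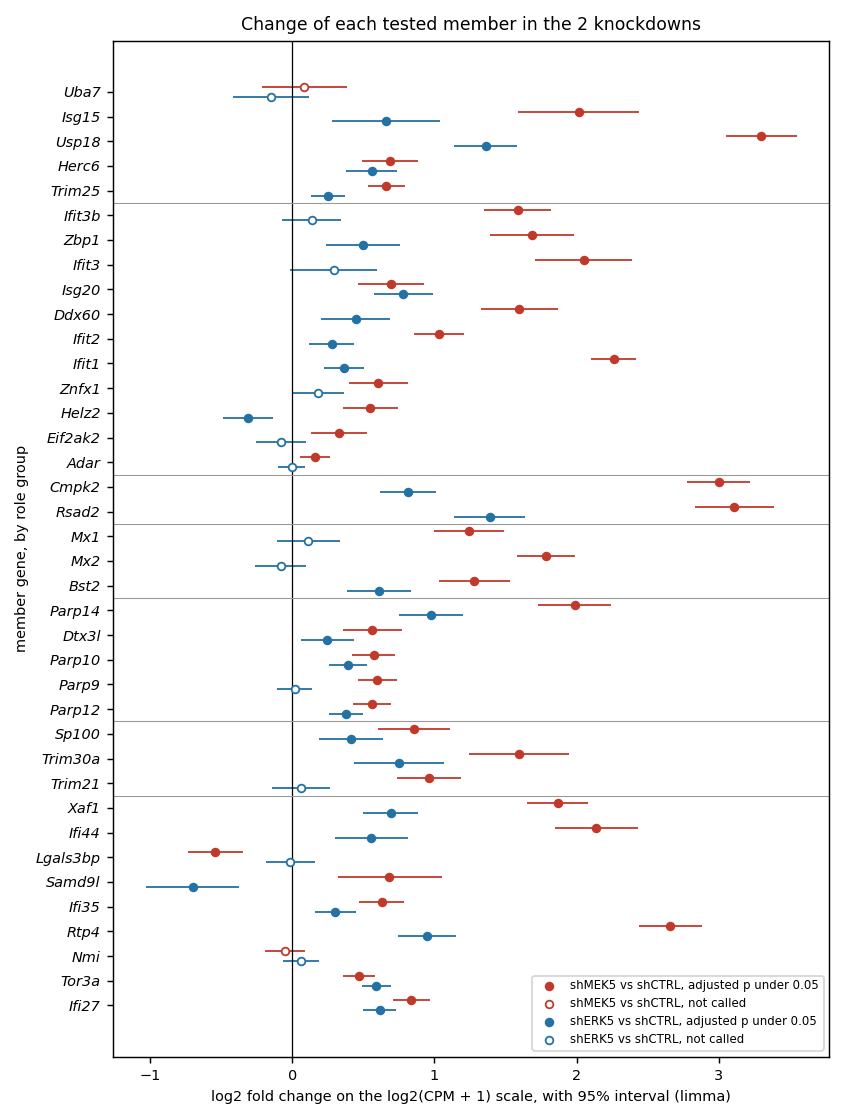
Log2 fold change on the log2(CPM + 1) scale with its 95% interval for the 38 tested members, shMEK5 against shCTRL in red and shERK5 against shCTRL in blue, filled where the adjusted p was under 0.05; lines separate the role groups. Red points lie right of 0 for all but Lgals3bp and Nmi, and most blue points lie nearer 0 than the red, except for Isg20, Tor3a, Samd9l, Uba7 and Nmi; Samd9l and Helz2 are filled blue on the left.

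The direct comparison of the knockdowns asked whether the 2 hairpins differ in these genes. Of the 38 tested members, 31 were lower in shERK5 than in shMEK5, 1 (Lgals3bp) was higher, and 6 were not called (background: 39.4% of tested genes called, 17.4% lower and 22.0% higher). By library, 33 members had every shERK5 value below both shMEK5 values and 3 above (background: 26.9% and 34.1%). The 33 include Ifit3, Ifit3b, Mx1 and Zbp1, which passed the filter through shMEK5 alone. The median difference was -0.80 against 0.02 over all tested genes, and -0.63 without Ifit3, Ifit3b, Mx1 and Zbp1, with 27 of 34 lower. Among the 24 members raised in both knockdowns, Zbp1 included, 20 were lower in shERK5. The same share among all genes raised in both was not computed. The 6 not called were Isg20, Parp10, Herc6, Tor3a, Uba7 and Nmi. The 95% interval of the difference ran from -0.33 to 0.07 for Herc6 and from -0.53 to 0.06 for Uba7. Parp10 differed by -0.18 (limma adjusted p = 0.0593), and 6 alternatives called it, among them edgeR on recovered reads (-0.21, adjusted p = 0.035) and the omission of shERK5 replicate 3 (-0.22, adjusted p = 0.0443). The calls of Parp12 and Adar were lost without shMEK5 replicate 1 (adjusted p = 0.149 and 0.111), without shMEK5 replicate 2 (adjusted p = 0.114 and 0.0913) and without shERK5 replicate 1 (adjusted p = 0.0688 and 0.0588), and that of Parp12 also without shERK5 replicate 3 (adjusted p = 0.0947). Dtx3l (adjusted p = 0.212) and Sp100 (adjusted p = 0.0903) lost theirs without shMEK5 replicate 1, and Ifi27 (adjusted p = 0.123) and Znfx1 (adjusted p = 0.0545) without shMEK5 replicate 2. With the replicate number as a block, which has no support in the labels, Parp12 (adjusted p = 0.0714) and Dtx3l (adjusted p = 0.0551) were not called.

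By size, without the 4 members that passed the filter through shMEK5 alone, 14 of 34 rose at least 2-fold on the log2(CPM + 1) scale in shMEK5 (18 of 38 with them), and 2, Usp18 and Rsad2, did so in shERK5 (background: 1.64% and 1.36% of tested genes). Between the knockdowns, 12 of the 34 were at least 2-fold lower in shERK5, or 16 of 38 with those 4 genes (background: 1.23%). The 34 include Usp18, Isg15, Ifi44, Xaf1, Cmpk2, Trim30a and Sp100, which reached 1 CPM in fewer than 2 shCTRL libraries. The pseudocount compresses low genes, and with a pseudocount of 0.1 the shERK5 number was 9. To compare genes with one another, CPM were divided by the length of each gene's combined exons in kilobases. On that scale the highest members in shCTRL were Ifi27 at 53.9, Tor3a at 19.8, Eif2ak2 at 13.5, Nmi at 13.1 and Adar at 10.3 CPM per kilobase, and the lowest tested member was Mx1 at 0.0087. The order changed in shMEK5, where Isg15, at 1.26 in shCTRL, reached 9.10, Rtp4 went from 1.40 to 11.4 and Bst2 from 5.29 to 14.4 CPM per kilobase. Among the members with a promoter window, the 10 with a response element match had a median log2 fold change of 1.60 in shMEK5 (from 0.33 for Eif2ak2 to 3.11 for Rsad2), and the 18 tested without one had 0.64 (from -0.54 for Lgals3bp to 3.00 for Cmpk2). In shERK5 the medians were 0.41 and 0.26. The 10 include Ifit3 (2.05 in shMEK5) and Ifit3b (1.59), which passed the filter through shMEK5 alone and whose stretches of 104 bases are identical. Mx1 and Zbp1, which also passed through shMEK5 alone, had no window and are in neither set. The ranges overlapped widely, and this is a description of 28 genes without a test.

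The genes that make, receive and transmit the interferon signal were read from a separate list of 36 genes, of which 27 passed the filter. Called in shMEK5 were 14 up and 5 down, and called in shERK5 were 12 up and 7 down (background: 23.1% up and 25.6% down in shMEK5, 32.0% up and 31.3% down in shERK5). The shares that fell are thus at or below those of all tested genes. Without shMEK5 replicate 1 the number that fell in shMEK5 was 2. Ifnb1, interferon beta, was the sole ligand of 10 listed with more than 10 reads in any group. It had 2, 1 and 0 reads in the shCTRL libraries, 78 and 151 reads in shMEK5 and 1 read in each shERK5 library, which is 1.88 and 3.18 CPM in shMEK5 and at most 0.0384 CPM elsewhere. It passed the filter through shMEK5 alone. Ifne had 4, 4 and 10 reads over the libraries of shCTRL, shMEK5 and shERK5, Ifna4 had 0, 2 and 0, and the other 7 ligand genes had none, so that each could still lie at up to 0.0725 CPM in the library with the fewest reads.

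Of the transcription factor genes, Stat2, Irf9, Irf1 and Irf7 rose in both knockdowns and were lower in shERK5 than in shMEK5. Irf3 of the same class went the other way: it fell in shMEK5 by 0.26 (SE 0.06, limma adjusted p = 0.00751), a call lost on omitting shMEK5 replicate 1 (adjusted p = 0.0548), and had -0.04 in shERK5. Irf7, the amplifier of type I interferon transcription, lay at 1.77, 2.18 and 2.21 CPM in shCTRL, 12.6 and 12.5 CPM in shMEK5 and 4.19, 4.10 and 4.00 CPM in shERK5. Its log2 fold changes were 2.15 (SE 0.09, limma adjusted p = 1.32e-07) and 0.74 (SE 0.08, adjusted p = 2.4e-05). Irf9 rose by 1.43 (SE 0.07) and 0.35 (SE 0.06), and Irf1 by 1.05 (SE 0.06) and 0.58 (SE 0.05). The sensor genes Ddx58 (RIG-I) and Ifih1 (MDA5) rose by 1.51 (SE 0.06) and 1.54 (SE 0.10) in shMEK5 and by 0.99 (SE 0.06) and 0.73 (SE 0.09) in shERK5. Of the 9 genes of nucleic acid sensing listed, 5 were called up and 2 down in each knockdown. Besides Ddx58 and Ifih1, those up were Dhx58 (1.19 in shMEK5 and 0.61 in shERK5), Tlr3 (0.38 and 0.36) and Cgas (0.44 and 0.36). Without shMEK5 replicate 1, Tlr3 had 0.31 in shMEK5. Sting1 fell by 0.46 (SE 0.07) in shERK5 and had -0.23 in shMEK5 (limma adjusted p = 0.036), a call that several alternatives lost, edgeR among them (adjusted p = 0.0522). Tbk1 fell by 0.21 (SE 0.05) in shERK5 and had 0.01 (SE 0.06) in shMEK5, not called. Ikbke had 0.25 (SE 0.10) in shERK5, not called (limma adjusted p = 0.0518), though DESeq2 called it (0.26, adjusted p = 0.0486). Ikbke fell by 0.40 (SE 0.11) in shMEK5, but was not called on omitting shMEK5 replicate 1 (-0.32, adjusted p = 0.115). Among the 6 receptor genes, those called in shMEK5 were 2 up, and those called in shERK5 were 1 up and 2 down, close to the shares of all tested genes. The interferon receptor gene Ifnar1 went from a mean of 50.7 ± 3.10 CPM (SD, n = 3) down to one of 43.3 ± 1.67 CPM (SD, n = 2) in shMEK5, which was not called (adjusted p = 0.0533), and to 40.7 ± 4.22 CPM (SD, n = 3) in shERK5, which was. It was called lower in shMEK5 when only those 2 groups were fitted (-0.22, adjusted p = 0.0219), without shCTRL replicate 2 (-0.26, adjusted p = 0.0469), without shERK5 replicate 1 (adjusted p = 0.0219) and without shERK5 replicate 2 (adjusted p = 0.0269). Its partner gene Ifnar2 had 0.01 (SE 0.07) in shMEK5, not called, and fell by 0.25 (SE 0.07) in shERK5. The kinase genes Jak2 and Tyk2 fell in both, by 0.75 (SE 0.11) and 0.45 (SE 0.08) on the log2 scale in shMEK5. In shERK5 they fell by 0.54 (SE 0.10) and 0.53 (SE 0.07). Jak1, the other kinase gene listed, had 0.08 (SE 0.05) in shMEK5, not called, and fell by 0.27 (SE 0.04) in shERK5. These receptor and kinase genes were chosen after their values were seen.

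**Figure D5:**
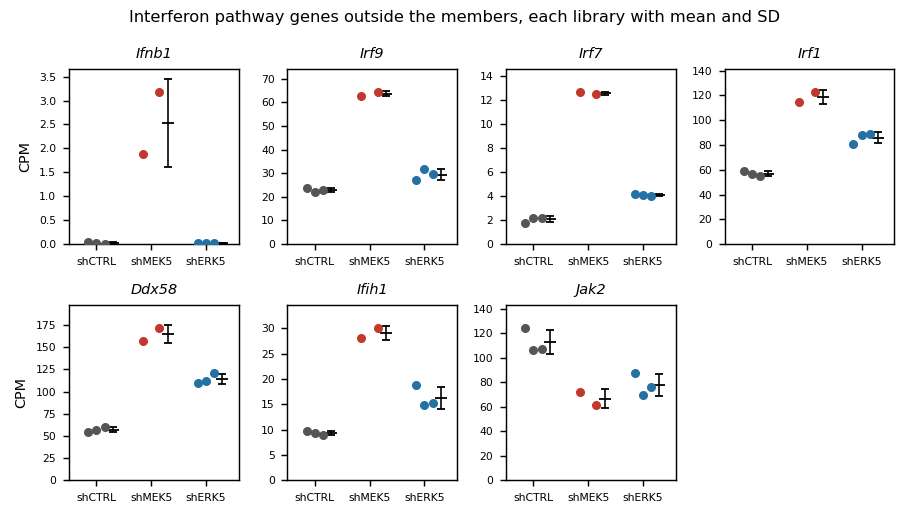
CPM of 7 pathway genes outside the members in each library (points, vertical axes from 0 and separate for each gene), grouped by hairpin, with group mean and SD in black. Ifnb1 was above 0.0384 CPM in the 2 shMEK5 libraries only, Irf9, Irf7, Irf1, Ddx58 and Ifih1 are highest in shMEK5 and intermediate in shERK5, and Jak2 is lower in both knockdowns.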

How the data were processed

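The authors deposited CPM values for 24454 genes listed by Entrez Gene number in each of 8 libraries, made from total RNA depleted of ribosomal RNA with a stranded kit, per the labels' protocols. The submitters' processing notes name STAR and mm10. The version, gene models, counter and strand setting behind the counts: not given in the sources used here. Each library summed to 1000000, and 100% of nonzero values equalled a whole number of reads to within 0.01 read. Symbols (24374 IDs matched) and coordinates were looked up in RefSeq's gene table for GRCm38.p6, promoters in RefSeq's promoter table and exon lengths in GENCODE.

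The unit being CPM, the test was limma 3.58.1 (R 4.3.3) with trend and robust moderation on log2(CPM + 1) over the 11623 genes with at least 1 CPM in at least 2 libraries, a mean per group and all 8 libraries. edgeR 4.0.16 and DESeq2 1.42.0 were run on the recovered reads as alternatives. Fold changes on the log2(CPM + 1) scale understate changes of low genes. Ratios of mean CPM carry no pseudocount. This step was first tested on simulated data with known changes. No 2 replicates were alike within sampling noise (chi-square per degree of freedom between 7.45 and 37.4).

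The members, lists and motifs were chosen with earlier results of these data known. All 39 members could be named; values in every library are printed for the member of each role group with the greatest change in either knockdown, for members whose 2 changes had opposite signs or whose change in shERK5 was the greater, and, chosen after their values were seen, for Ifit3, Ifit3b, Mx1 and Lgals3bp. Of the pathway list, the genes named are those among the 6 with the smallest adjusted p, of which 1 is not reported here, and every ligand with reads; Stat2, Irf3, Sting1, Tbk1, Ikbke, Ifnar1, Jak2 and Tyk2 were added after their values were seen.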

Additional observations from a re-analysis of the deposited data

How the results depend on the processing

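Alternatives were other tests, scalings, pseudocounts, filters, fits and the omission of each library. Over the 38 tested members in 3 comparisons, 35 kept direction and call under every alternative run for shMEK5 against shCTRL. For shERK5 the number was 31, and for the difference of the knockdowns it was 31. Without a single library, members up ranged from 33 to 35 in shMEK5 and from 23 to 25 in shERK5, members down were 1 in shMEK5 and from 2 to 3 in shERK5, and between the knockdowns 27 to 31 were lower and 1 higher. Of the pathway list, 12 to 14 rose and 2 to 7 fell in shMEK5, 11 to 13 rose and 7 fell in shERK5, and 2 to 4 were higher and 10 to 14 lower between them; these alternatives were added after seeing the data. Members past 2-fold in shERK5 were 2, or 9 with a pseudocount of 0.1 and 5 with 0.5.

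The sign of values that were not called turned for Adar in shERK5 without shCTRL replicate 3 (0.00678) and without shERK5 replicate 1 (0.0198; range without 1 library -0.021 to 0.0198), for Lgals3bp in shERK5 without shCTRL replicate 2 (0.0445), shERK5 replicate 1 (0.0244) or shERK5 replicate 2 (0.00858; range -0.0749 to 0.0445), for Parp9 in shERK5 without shCTRL replicate 2 (-0.00777) or replicate 3 (-0.00124; range -0.00777 to 0.06), and for Uba7 in shMEK5 without shCTRL replicate 3 (-0.0371) or shMEK5 replicate 1 (-0.0798; range -0.0798 to 0.246). With windows limited to the part before the start site, the response element was in 3.46% and the gamma-activated site in 8.13% of all genes, and in 8 (27.6%) and 4 (13.8%) of the 29 members. The longer element, searched in the whole windows only, was in 0.303% of all genes.

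Replicate numbers are shared by the titles of the 3 groups. Deviations from the group means had correlations from -0.191 to 0.518 between same-numbered libraries and from -0.518 to 0.4 between others. The highest were those of shMEK5 with shERK5 replicate 1 (0.465) and replicate 2 (0.518). The 2 shMEK5 libraries deviate from their mean as mirror images, and whether a number marks a shared batch was not tested. With a replicate block, 35 members rose in shMEK5, 24 rose in shERK5 and 30 were lower in shERK5 than in shMEK5. Genes below about 1 CPM in shCTRL rest on few reads.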
